A study of Mus musculus with 13 samples.

Results

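The genes followed here are 10 members of bone morphogenetic protein (BMP) signalling in mouse lung: the ligands Bmp4, Bmp5 and Bmp6, the endothelial receptors Bmpr2, Acvrl1 and Eng, and the direct targets Id1, Id2, Id3 and Smad6. They were chosen by their roles and found by exact gene symbol in the deposited count table, 10 of its 32544 rows, and all 10 passed the filter on low counts that left 12496 genes for testing. Whole lung RNA came from wild-type (WT) male C57BL/6J mice, bought at 7 weeks of age, that breathed 21% oxygen (Normoxia, 7 libraries) or 80% oxygen (Hyperoxia, 6 libraries) for 5 days. The lungs of both groups were flushed with cold DPBS, a buffered salt solution, and frozen before extraction, and no transgene or other agent was involved. The libraries were made by Quant-seq, which counts fragments from the 3′ end of polyadenylated transcripts.

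BMPs are secreted ligands of the TGF-β family that join type I and type II receptor kinases at the cell surface. The activated type I receptor phosphorylates the receptor-regulated SMAD proteins, which enter the nucleus and switch on target genes. In lung vessels ACVRL1 is a type I receptor, BMPR2 a type II receptor and ENG (endoglin) a co-receptor, and inherited loss of their function is known from hereditary haemorrhagic telangiectasia and heritable pulmonary arterial hypertension. ID proteins bind E proteins, a class of transcription factors, and keep them off DNA, and SMAD6 is an inhibitor that is itself induced by the pathway.

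Total counts were 1607111 to 3387736 in normoxic libraries and 2029006 to 4540288 in hyperoxic libraries. The library labelled hyperoxia replicate 1 stood apart from the rest. Its correlations of log2 CPM (counts scaled to a fixed library total) with the other libraries were 0.721 to 0.833, against 0.854 to 0.967 among the other 12. Of the 10 genes, 8 had their highest or lowest value of all 13 libraries in this library, as did 52.8% of all genes tested, whereas the other libraries held the extreme value of 4.26% to 25.9% of genes. Results that rest on this library are therefore given with and without it. Each library also carries a letter in its label, with 5 Normoxia and 3 Hyperoxia samples among B to M and 2 and 3 among O to S, and the labels do not say what the letters stand for, so each member's values within the letter sets are given beside it.

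Stretches of 30 bases around matches to 2 short motifs are shown for receptor and target genes whose levels are compared most closely below, and for Bmp5, the ligand that passed the test. The motifs were GGCGCC, a GC-rich element that SMADs of the BMP branch are known to bind, and GTCTG (reverse complement CAGAC), the core of the general SMAD-binding element. They were searched on both strands of RefSeq promoters (GRCm38.p6), 250 bases before to 50 bases after the annotated start, which were found for 8 of the 10 genes, without Acvrl1 and Id1. Each is printed 5′ to 3′ in the direction of its gene's transcription, with the motif in capitals.
Bmpr2, chr1:59764162-59764191, plus strand: ctccggcggccgGGCGCCgctgcctgcccc
Id2, chr12:25096306-25096335, minus strand: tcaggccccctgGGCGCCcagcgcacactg
Eng, chr2:32646369-32646398, plus strand: agggacttcaacCAGACcttgtcccctata
Eng, chr2:32646456-32646485, plus strand: tgcatgggggagGTCTGttgcctgggccct
Id3, chr4:136143643-136143672, plus strand: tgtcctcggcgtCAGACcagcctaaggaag
Id3, chr4:136143742-136143771, plus strand: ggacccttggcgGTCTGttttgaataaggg
Bmp5, chr9:75775219-75775248, plus strand: tagatcactgttGTCTGttacatgcatggc
The GGCGCC motif was in 2 of the 8 promoters, Bmpr2 and Id2, and in 11.9% of all 32851 mouse promoters. GTCTG or CAGAC was in 4 of the 8, Bmp5, Bmp6, Eng and Id3, and in 49.6% of all promoters. No match of the GC-rich motif lay in the same promoter as a match of the other, so none overlapped. For Bmpr2, Id2 and Id3 the RefSeq starts used here differ from the gene starts given below, which are from GENCODE, so that their stretches lie inside the gene spans.

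After 5 days of hyperoxia, 3 of the 10 BMP genes differed from normoxia at an adjusted p under 0.05 (edgeR's quasi-likelihood test with Benjamini-Hochberg adjustment over all genes tested), where 22.6% of all genes did. Eng was higher in hyperoxia, a direction taken by 11.8% of all genes, and Bmp5 and Id2 were lower, as were 10.8%. Without hyperoxia replicate 1, 6 of the 10 passed, against 28.5% of all genes. Eng and Id1 were then higher, as were 15.2% of all genes, and Bmp5, Bmp6, Acvrl1 and Id2 lower, as were 13.3%. Within the letter sets 1 of 10 members passed for B to M (8.8% of all genes), 5 of the 9 members that passed the filter for O to S (21.3%), and 3 of 10 for B to M with hyperoxia replicate 1 left out (13.3%). The median log2 fold change of the 10 genes was −0.44, beside −0.03 over all genes tested, and −0.35 beside −0.01 without that library. The deposited log CPM values, the library size alone and a scaling to endothelial marker genes moved the median of all genes to −0.16, −0.10 and −0.21. Under these scalings 38.8%, 42.7% and 27.6% of the called genes were higher in hyperoxia, against 52.3% with TMM, the trimmed-mean scaling used for the values below. Leaving Cd93 out of the endothelial markers, a choice made after its values were seen, moved the median of all genes to 0.38 and that of the 10 to −0.02, with 87.9% of the called genes higher, and only Eng of the 10 then passed (1.37, edgeR, adjusted p = 0.000421). All values are from whole-lung RNA, in which fewer cells of a type and less RNA per cell cannot be told apart.

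**Figure D1:**
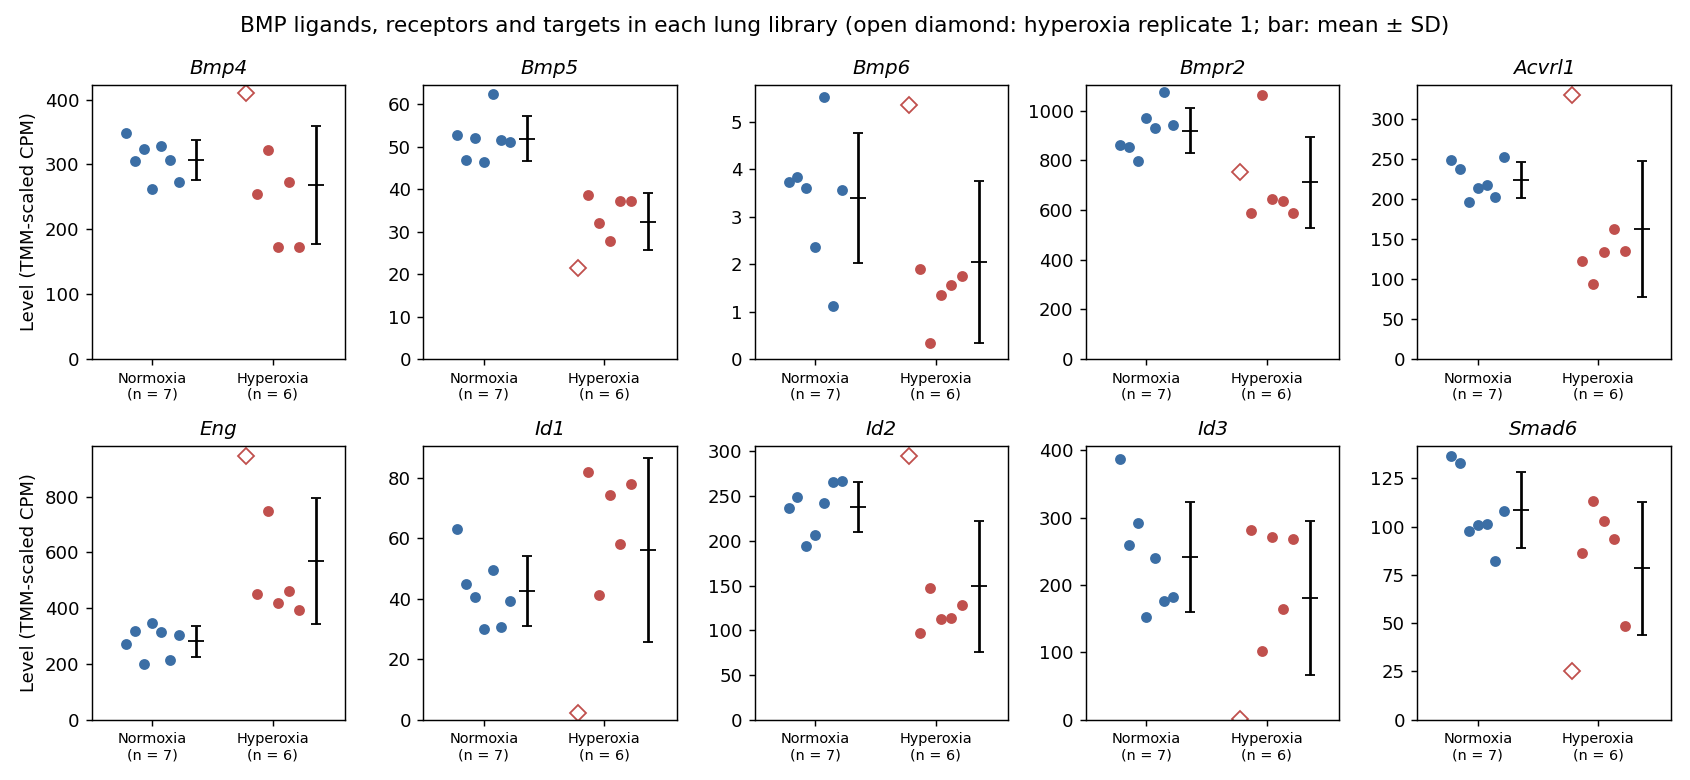
Level of each of the 10 genes in every library, in TMM-scaled CPM on axes that start at 0, with normoxic libraries in blue, hyperoxic libraries in red, hyperoxia replicate 1 as an open diamond, and bars for the mean ± SD of all libraries of the group. Eng and Bmp5 show no overlap between the groups, and the open diamond is the highest point for Bmp4, Acvrl1, Eng and Id2 and the lowest for Bmp5, Id1, Id3 and Smad6.

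Of the ligands, Bmp5 was lower in hyperoxia with no overlap between the groups, and the other 2 overlapped between the groups. Bmp5 (chr9:75775364-75900310, plus strand), a ligand of the same subgroup as Bmp6, ranged from 46.4 to 62.5 CPM with a median of 51.6 in normoxia and from 21.4 to 38.5 CPM with a median of 34.6 in hyperoxia. Its mean was 51.9 ± 5.31 CPM (± SD) over 7 normoxic and 32.3 ± 6.72 CPM over 6 hyperoxic libraries. The log2 fold change was −0.67 (SE 0.15, adjusted p = 0.00510, edgeR), or 1.59-fold lower. The two-sided exact permutation test over samples gave p = 0.000583, the smallest p that this test can give for 7 and 6 libraries, and a lack of overlap was seen in 10.8% of all genes tested. The lowest library was hyperoxia replicate 1, and without it the log2 fold change was −0.57 (edgeR, adjusted p = 0.00342). Within the letter sets it was −0.71 (edgeR, adjusted p = 0.0879) for B to M and −0.60 (edgeR, adjusted p = 0.0504) for O to S, so that neither set passed the threshold by itself. Within B to M without replicate 1 it was −0.54 (edgeR, adjusted p = 0.108). Scaling to the endothelial markers without Cd93 also ended the call (−0.27, edgeR, adjusted p = 0.420).

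Bmp4 (chr14:46383520-46390669, minus strand), a ligand that patterns the lung epithelium during branching, did not pass. Its level ran from 261.7 to 348.7 CPM with a median of 307.2 in normoxia and from 172.7 to 410.7 CPM with a median of 263.7 in hyperoxia. Of the 6 hyperoxic libraries, 3 lay below all normoxic libraries and 1, replicate 1, above them. Its log2 fold change was −0.20 (SE 0.19, edgeR, adjusted p = 0.497), and −0.34 (edgeR, adjusted p = 0.132) without that library. That was the strongest fall of the 13 fits that left out 1 library, and the weakest was −0.069, without hyperoxia replicate 6. Bmp4 passed in 0 of these fits. Within letters B to M the sign turned, at 0.13, but it was −0.098 there without replicate 1, and within O to S it was −0.50 (edgeR, adjusted p = 0.129). The sign also turned with the endothelial scaling without Cd93, at 0.15.

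Bmp6 (chr13:38345107-38500302, plus strand), known in the liver as the ligand that sets hepcidin levels, was close to the limit of detection, with 1 to 12 counts per library. It had 1.12 to 5.51 CPM with a median of 3.60 in normoxia and 0.347 to 5.36 CPM with a median of 1.66 in hyperoxia, and a count of 3 stands for 0.661 to 1.87 CPM in these libraries. This gave a log2 fold change of −0.78 (SE 0.47, edgeR, adjusted p = 0.255). Hyperoxia replicate 1 held the highest hyperoxic value, and without it the log2 fold change was −1.20 (edgeR, adjusted p = 0.0443), past the threshold at this low depth. Within letters B to M it was −0.59 (edgeR, adjusted p = 0.617), and −1.71 (edgeR, adjusted p = 0.141) there without replicate 1, and in O to S the gene did not pass the filter on low counts. The span of the gene overlaps that of Txndc5 on the opposite strand, whose own log2 fold change was −1.07 (edgeR, adjusted p = 0.000659). Only whole gene spans were compared, not exons, and counting was not stated to use strand. Whether Bmp6 and Txndc5 share reads was not tested.

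The receptors did not change alike. Eng rose about 2-fold, while Bmpr2 lay below every normoxic library in 5 of 6 hyperoxic libraries and Acvrl1 likewise in 5, of which 4 were below for both. Eng (chr2:32646595-32682669, plus strand) was at 200.5 to 345 CPM with a median of 302 in normoxia and at 392 to 945 CPM with a median of 457 in hyperoxia. All 6 hyperoxic libraries were above all 7 normoxic libraries, and the highest was replicate 1. The mean was 281 ± 54.8 CPM (± SD) over 7 normoxic and 569 ± 225 CPM over 6 hyperoxic libraries, a log2 fold change of 1.02 (SE 0.22, edgeR, adjusted p = 0.00334), or 2.02-fold. Without hyperoxia replicate 1 it was 0.83 (SE 0.18, edgeR, adjusted p = 0.00241), and the groups still did not overlap. Within the letter sets it was 1.36 (edgeR, adjusted p = 0.0160) for B to M and 0.70 (edgeR, adjusted p = 0.0252) for O to S. Eng passed in each of the 13 fits that left out 1 library, at 0.83 to 1.14. Its span overlaps Fpgs on the opposite strand and 3 small genes on its own strand, and whether its count holds reads of these was not tested. Of the other members, Bmp4 overlaps 2 annotated genes on the opposite strand, Bmp5 1 on each strand, Bmpr2 1 on its own strand and Acvrl1 1 on the opposite strand. For these too only whole gene spans were compared, and shared reads were not tested.

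Acvrl1 (chr15:101128522-101145336, plus strand), the endothelial type I receptor, ranged from 196 to 253 CPM with a median of 218 in normoxia. In hyperoxia it ranged from 93.5 to 330 CPM with a median of 134, and 5 libraries lay below all normoxic libraries while replicate 1 lay above them. Over all libraries the log2 fold change was −0.47 (SE 0.23, edgeR, adjusted p = 0.169) with an exact permutation p of 0.0350, and limma on log CPM called it lower (−0.65, adjusted p = 0.0411). Without hyperoxia replicate 1 it was −0.78 (SE 0.13, edgeR, adjusted p = 0.000397), or 1.72-fold lower, with no overlap between the groups, which 15.2% of all genes showed in those libraries. The count in replicate 1 was 616, which gives 330 CPM with an exact binomial 95% interval of 305 to 357 that covers counting error only. Within letters O to S, which do not hold replicate 1, Acvrl1 was lower by itself (log2 fold change −0.68, edgeR, adjusted p = 0.0200), and within B to M it was −0.22 with replicate 1 and −1.03 (edgeR, adjusted p = 0.00537) with that library left out.

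Bmpr2 (chr1:59763400-59879014, plus strand), the type II receptor, had 797 to 1076 CPM with a median of 931 in normoxia and 586 to 1062 CPM with a median of 640 in hyperoxia. Here the library apart from its group was not replicate 1 but hyperoxia replicate 3, at 1062 CPM, and the other 5 hyperoxic libraries lay below all normoxic libraries. The mean was 919 ± 91.4 CPM (± SD) over 7 normoxic and 712 ± 182 CPM over 6 hyperoxic libraries. The log2 fold change was −0.37 (SE 0.16, edgeR, unadjusted p = 0.0309 and adjusted p = 0.102), and the exact permutation p was 0.0187. It passed without hyperoxia replicate 3 (−0.49, edgeR, adjusted p = 0.0167), with limma on log CPM (−0.47, adjusted p = 0.0218), with library size alone (−0.46, edgeR, adjusted p = 0.0316) and with at least 10 counts in every library (−0.44, edgeR, adjusted p = 0.0286). With the endothelial scaling without Cd93 it was 0.0078 (edgeR, adjusted p = 0.983). Within the letter sets it was −0.09 (edgeR, adjusted p = 0.844) for B to M and −0.71 (edgeR, adjusted p = 0.00878) for O to S.

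The unequal change of the receptors was tested as the log2 ratio of a pair of genes within each library, which does not depend on how libraries are scaled. The difference of each of 12 pairs of members was tested by a two-sided exact permutation over samples, with p-values adjusted over the 12 pairs. The Bmpr2 to Eng ratio was 1.73 ± 0.32 (SD, n = 7) in normoxia and 0.37 ± 0.35 (SD, n = 6) in hyperoxia on the log2 scale, and all 6 hyperoxic libraries were below the normoxic range (difference −1.36, exact permutation p = 0.000583, adjusted p = 0.00233). The Acvrl1 to Eng ratio went from −0.31 ± 0.25 (SD, n = 7) to −1.84 ± 0.58 (SD, n = 6), again without overlap (difference −1.54, exact permutation p = 0.000583, adjusted p = 0.00233). Both differences stood without hyperoxia replicate 1, at −1.22 and −1.60 (exact permutation, adjusted p = 0.00379 each). Within letters B to M they were −1.44 and −1.77 and within O to S −1.42 and −1.39, and neither passed in either set (adjusted p = 0.0714 each for B to M), where the smallest exact p-values that the libraries allow are 0.0179 and 0.1. The Bmpr2 to Acvrl1 ratio differed by 0.18 (exact permutation, adjusted p = 0.788), with wide scatter in hyperoxia (SD 0.75). No ratio of ligands passed with all libraries. The differences were 0.43 for Bmp4 to Bmp5, 0.44 for Bmp4 to Bmp6 and 0.008 for Bmp5 to Bmp6 (exact permutation, adjusted p = 0.362, 0.712 and 0.990). Without hyperoxia replicate 6, Bmp4 to Bmp5 passed (0.59, exact permutation, adjusted p = 0.0265).

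**Figure D2:**
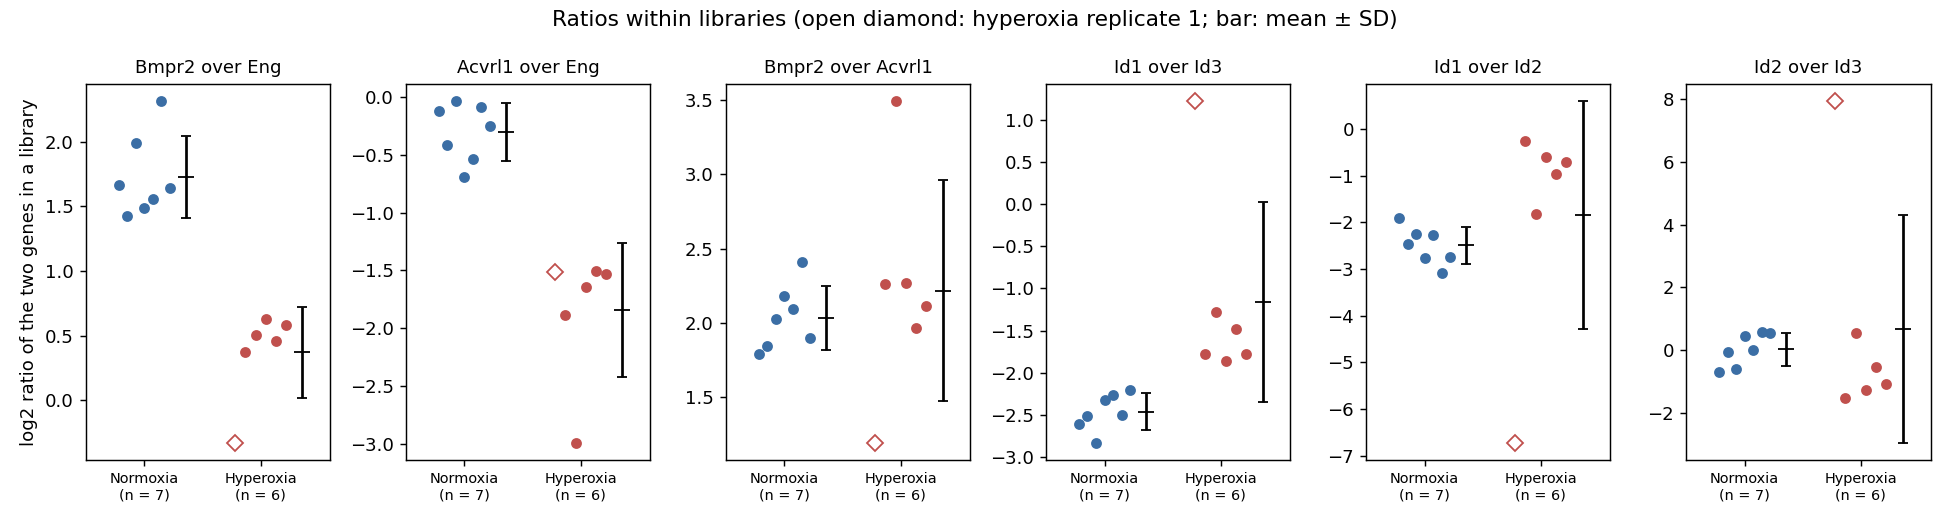
Log2 ratio of 2 genes in each library for 3 pairs of receptors and 3 pairs of ID genes, with normoxic libraries in blue, hyperoxic libraries in red, hyperoxia replicate 1 as an open diamond and bars for the mean ± SD of the group; the axes differ between panels and do not start at 0. The ratios of Bmpr2 and of Acvrl1 to Eng are lower in all 6 hyperoxic libraries and the Id1 to Id3 ratio is higher in all 6, whereas the Id1 to Id2 and Id2 to Id3 panels are stretched by the diamond.

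Of the ID genes, Id2 was lower in hyperoxia and Id1 and Id3 did not pass. Without hyperoxia replicate 1, Id2 was lower and Id1 higher, and Id3 still did not pass. Id2 (chr12:25093799-25097140, minus strand) ranged from 194 to 267 CPM with a median of 243 in normoxia and from 97.5 to 295 CPM with a median of 121 in hyperoxia. Replicate 1 was the highest of all 13 libraries, and the other 5 hyperoxic libraries lay below every normoxic library. The mean was 237 ± 27.9 CPM (± SD) over 7 normoxic and 149 ± 73.6 CPM over 6 hyperoxic libraries, with a log2 fold change of −0.68 (SE 0.22, edgeR, adjusted p = 0.0402) and an exact permutation p of 0.0105. Without replicate 1 the hyperoxic mean was 120 ± 18.6 CPM (SD, n = 5) and the log2 fold change −0.97 (SE 0.13, edgeR, adjusted p = 5.2e-05), or 1.96-fold lower. Leaving out any other library ended the call, with log2 fold changes of −0.68 to −0.54, and so did DESeq2 (adjusted p = 0.054), no filter (edgeR, adjusted p = 0.0871), an edgeR fit with a term for the letters (adjusted p = 0.0503) and the endothelial scaling without Cd93 (−0.32, edgeR, adjusted p = 0.349). Within letters B to M it was −0.26 (edgeR, adjusted p = 0.652), and −0.86 (edgeR, adjusted p = 0.0212) there without replicate 1, and within O to S it was −1.18 (edgeR, adjusted p = 0.00111).

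Id1 (chr2:152736251-152737410, plus strand) had 29.9 to 63.1 CPM with a median of 40.6 in normoxia and 2.14 to 82.0 CPM with a median of 66.2 in hyperoxia. In 3 hyperoxic libraries it was above all normoxic libraries, and in replicate 1 it was far below them, with 4 counts (2.14 CPM, exact binomial 95% interval 0.584 to 5.49). The log2 fold change was 0.41 (SE 0.43, edgeR, adjusted p = 0.535), and the sign turned in the limma fit to the authors' log CPM (−0.16) and within letters B to M (−0.09). Without hyperoxia replicate 1 the mean was 42.6 ± 11.5 CPM (± SD) over 7 normoxic and 66.7 ± 16.8 CPM over 5 hyperoxic libraries, a log2 fold change of 0.67 (SE 0.20, edgeR, adjusted p = 0.0169). Within letters O to S, which do not hold that library, it was 1.00 (edgeR, adjusted p = 0.00989), and within B to M with that library left out 0.45 (edgeR, adjusted p = 0.348).

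Id3 (chr4:136143497-136145755, plus strand) had the widest spread of the ID genes in normoxia, from 152 to 388 CPM with a median of 240. In hyperoxia it ran from 0.536 to 282 CPM with a median of 216, and the lowest value was again replicate 1, with 1 count (exact binomial 95% interval 0.0136 to 2.99 CPM). Id3 had a log2 fold change of −0.41 (SE 0.57, edgeR, adjusted p = 0.657), and −0.14 (SE 0.26, edgeR, adjusted p = 0.725) without that library. Within letters O to S it was 0.37 (edgeR, adjusted p = 0.239), of the opposite sign, as with the endothelial scaling without Cd93 (0.13), and within B to M it was −1.04 (edgeR, adjusted p = 0.503), and −0.46 (edgeR, adjusted p = 0.463) there without replicate 1. No direction of Id3 could be read at this spread.

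Of the 3 pairs of ID genes, 1 passed with all libraries. The Id1 to Id3 ratio, on the log2 scale, was −2.46 ± 0.22 (SD, n = 7) in normoxia and −1.16 ± 1.19 (SD, n = 6) in hyperoxia, higher in 6 of 6 hyperoxic libraries (difference 1.30, exact permutation p = 0.000583, adjusted p = 0.00233). The value of replicate 1 rests on 4 and 1 counts, and without it the hyperoxic ratio was −1.64 ± 0.24 (SD, n = 5), a difference of 0.83 (exact permutation, adjusted p = 0.00379). The Id1 to Id2 ratio differed by 0.65 (exact permutation, adjusted p = 0.788) with all libraries and by 1.63 (exact permutation, adjusted p = 0.00379) without replicate 1, when all 5 hyperoxic libraries were above the normoxic libraries. The Id2 to Id3 ratio did not pass with all libraries (difference 0.65, exact permutation, adjusted p = 0.990) or without replicate 1, where it had the opposite sign (−0.80, exact permutation, adjusted p = 0.136). In all, 3 of the 12 pairs passed with all libraries and 6 without hyperoxia replicate 1.

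**Figure D3:**
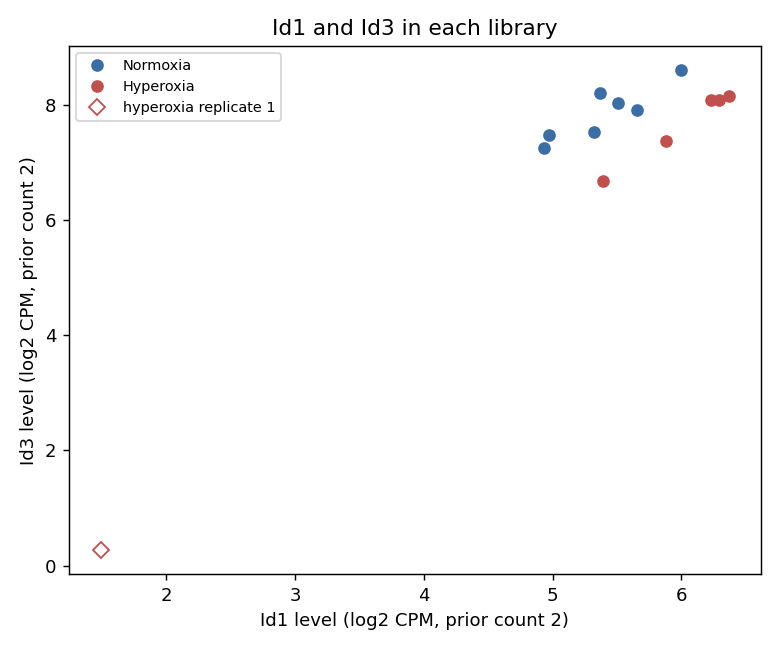
Id3 level against Id1 level in each library, both as log2 CPM with a prior count of 2, with normoxic libraries in blue, hyperoxic libraries in red and hyperoxia replicate 1 as an open diamond at the lower left. The 5 other hyperoxic points lie to the right of or below the band of normoxic points, so that Id3 is lower there at a like level of Id1.

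Across libraries, Id1 and Id3 varied together. After the mean of its group was subtracted from each library, their log2 CPM had a Pearson r of 0.995 over 13 libraries (Spearman rho 0.94) and 0.935 over 12 without hyperoxia replicate 1 (rho 0.93). Leaving out in addition the 2 libraries farthest from the median of Id1 gave 0.872. These are descriptions over libraries that share their tissue and differ in depth. Id3 was the gene most like Id1 of all genes tested over 13 libraries, and Stat5b (r = 0.96) took that place over 12. The gene most like Id2 was Rftn1 under both counts (r = 0.981 and 0.911), that most like Acvrl1 was Sardh (0.959 and 0.903), and that most like Bmp6 was Ddah1 (0.971 and 0.95). For the other members the most like gene was another with and without that library: for Eng it was Rpl22 (0.948) and then Gba2 (0.958), for Bmpr2 Acadsb (0.96) and then Rnf13 (0.968), for Id3 Tuba1a (0.998) and then Adcy7 (0.978). For Bmp4 these were Marc2 (0.928) and Pon2 (0.948), for Bmp5 Mad2l1bp (0.942) and Mrpl43 (0.921), and for Smad6 Zxdb (0.963) and Fermt1 (0.917).

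Smad6 (chr9:63953076-64022059, minus strand), the inhibitory SMAD, ranged from 82.0 to 136 CPM with a median of 101 in normoxia and from 25.2 to 113 CPM with a median of 90.2 in hyperoxia. Hyperoxia replicate 1 was the lowest library, with 47 counts, replicate 6 was next at 48.3 CPM, and the other 4 were inside the normoxic range. The log2 fold change was −0.47 (SE 0.27, edgeR, adjusted p = 0.235), and −0.27 (edgeR, adjusted p = 0.319) without replicate 1. Within the letter sets it was −0.56 (edgeR, adjusted p = 0.381) for B to M, −0.17 (edgeR, adjusted p = 0.655) there without replicate 1, and −0.23 (edgeR, adjusted p = 0.604) for O to S. Set against Id1, Smad6 was lower in hyperoxia once replicate 1 was left out (log2 ratio 0.40 ± 0.78, n = 5, against 1.36 ± 0.25, n = 7; exact permutation, adjusted p = 0.0182). Set against Id2 it was then higher, by 0.67 (exact permutation, adjusted p = 0.0455). With all libraries neither ratio passed (exact permutation, adjusted p = 0.742 and 0.990).

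**Figure D4:**
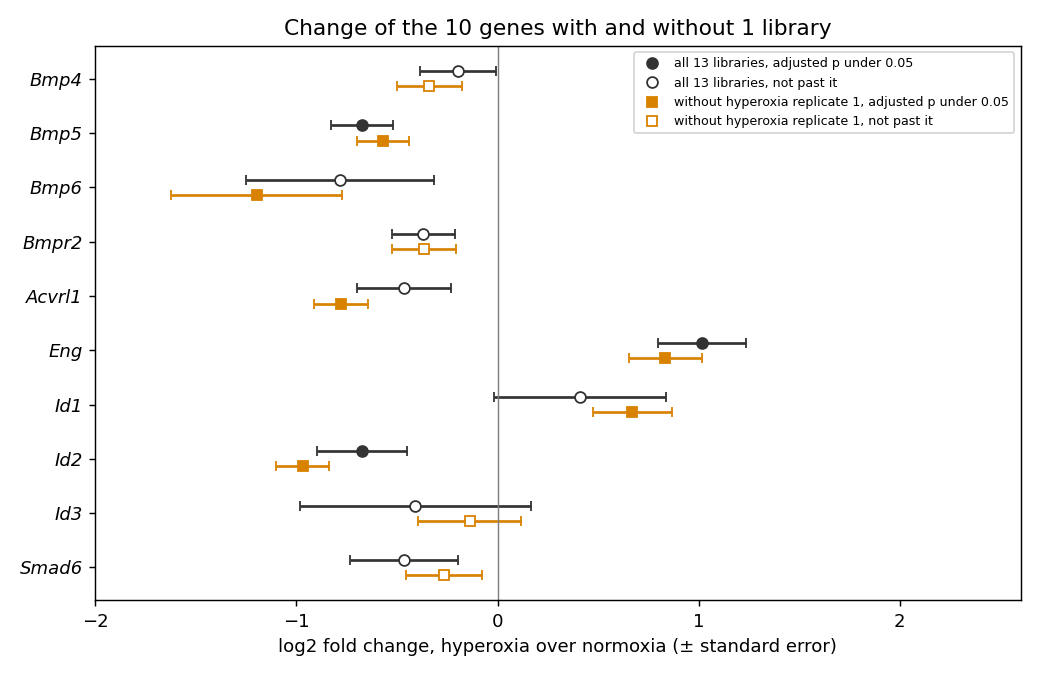
Log2 fold change of each of the 10 genes, hyperoxia over normoxia, with bars of 1 standard error, from all 13 libraries (black circles) and without hyperoxia replicate 1 (orange squares); filled symbols passed an adjusted p of 0.05. The filled symbols rise from 3 to 6 when that library is left out, and Eng, Bmp5 and Id2 are filled in both.

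The rest of the pathway was followed with 6 lists of 53 genes, of which 52 were in the table under their symbol and 34 were tested. Of these, 3 were higher and 10 lower in hyperoxia, where 11.8% and 10.8% of all genes tested were, with a median log2 fold change of −0.32 beside −0.03 over all genes, and 4 were higher and 9 lower without hyperoxia replicate 1, where 15.2% and 13.3% of all genes were. Among 3 tested ligands, Bmp3, a ligand known to oppose other BMPs, fell, with 85.0 ± 16.3 CPM (± SD) over 7 normoxic and 42.3 ± 8.18 CPM over 6 hyperoxic libraries, with no overlap between the groups (log2 fold change −1.01, SE 0.17, edgeR, adjusted p = 0.00042). Within letters B to M Bmp3 did not pass (−0.81, edgeR, adjusted p = 0.0555). Bmp2 was not called (0.29, edgeR, adjusted p = 0.451).

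Of 8 tested receptors and co-receptors, 3 were lower and 0 higher with edgeR, beside 10.8% and 11.8% of all genes, and the median was −0.77. The counts were 4 and 0 at an unadjusted p under 0.05, with DESeq2 and with limma on log CPM, and 2 and 0 with limma-voom. The 3 lower with edgeR were Tgfbr3 (betaglycan, a co-receptor related to endoglin), which was 55.7 ± 21.8 CPM (± SD) over 7 normoxic and 24.8 ± 9.85 CPM over 6 hyperoxic libraries, Acvr2b, a type II receptor shared with activins (log2 fold change −1.59), and Rgma, a BMP co-receptor (−0.91). The adjusted p-values were 0.0173, 0.0263 and 0.0468 (edgeR), and the groups overlapped for all 3. Acvr2b and Rgma were at low levels. Acvr2b ran from 2.23 to 11.57 CPM in normoxia and from 0.347 to 4.155 CPM in hyperoxia. Rgma ran from 3.70 to 8.59 CPM in normoxia and from 1.97 to 5.36 CPM in hyperoxia. Leaving out 1 library ended the call of Rgma in 11 of 13 fits and of Acvr2b in 2 of the 8 fits that kept it. Tgfbr3 did not pass within either letter set, at −1.49 (edgeR, adjusted p = 0.0921) for B to M and −0.61 (edgeR, adjusted p = 0.0567) for O to S, and limma-voom ended the call of Acvr2b (adjusted p = 0.076). None of the 3 passed with the endothelial scaling without Cd93, and Acvr2b (edgeR, adjusted p = 0.0913) and Rgma (edgeR, adjusted p = 0.0626) did not pass with a term for the letters. Rgma also did not pass with no filter (edgeR, adjusted p = 0.108) or within either letter set (edgeR, adjusted p = 0.342 and 0.163). Bmpr1a, the widely expressed type I receptor, had a log2 fold change of 0.09 (edgeR, adjusted p = 0.716), which took the opposite sign with limma on log CPM and with the endothelial scaling.

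The secreted antagonists moved in both directions, 2 higher and 3 lower of 8 tested with edgeR, beside 11.8% and 10.8% of all genes. The counts were the same with DESeq2, 1 and 1 with limma-voom, and 2 and 2 with limma on log CPM. The median of the antagonists was 0.12 on the log2 scale and −0.056 without hyperoxia replicate 1. Fst (follistatin), which binds activins and some BMPs, ran from 3.60 to 14.1 CPM in normoxia and from 1.61 to 111.5 CPM in hyperoxia, and its lowest hyperoxic library was replicate 1. Its log2 fold change was 2.73 (SE 0.53, edgeR, adjusted p = 0.00171), and 3.01 without that library. It did not pass with limma-voom (2.36, adjusted p = 0.0532) or within letters B to M (2.88, edgeR, adjusted p = 0.0531). The related Fstl3 was 24.4 ± 8.95 CPM (± SD) over 7 normoxic and 98.2 ± 68.3 CPM over 6 hyperoxic libraries, a log2 fold change of 2.01 (SE 0.42, edgeR, adjusted p = 0.00265), and did not pass within letters B to M without hyperoxia replicate 1 (1.42, edgeR, adjusted p = 0.0885). Twsg1, a chordin partner, was lower with no overlap between the groups (−1.12, SE 0.20, edgeR, adjusted p = 0.00071). Chrdl1 (−0.68, edgeR, adjusted p = 0.0449) and Nbl1 (−1.23, edgeR, adjusted p = 0.0447) were close to the threshold, and leaving out 1 library ended their calls in 11 and 9 of 13 fits, as did limma-voom and the endothelial scaling without Cd93 for both. Chrdl1 did not pass within letters B to M (−0.37, edgeR, adjusted p = 0.531) or with no filter (edgeR, adjusted p = 0.105). For Nbl1 the sign turned within letters O to S (0.22, edgeR, adjusted p = 0.793), and neither a fit with a term for the letters (−0.99, edgeR, adjusted p = 0.151) nor limma on log CPM (adjusted p = 0.0875) called it. Bmper was not called (0.27, edgeR, adjusted p = 0.672).

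Of 6 SMADs and their ubiquitin ligases, Smad1 was higher in all 6 hyperoxic libraries, 45.1 ± 6.58 CPM (SD, n = 7) against 75.4 ± 13.8 CPM (SD, n = 6) (log2 fold change 0.74, SE 0.15, edgeR, adjusted p = 0.00188). The endothelial scaling ended this call (0.56, edgeR, adjusted p = 0.089), and it did not pass within letters O to S (0.51, edgeR, adjusted p = 0.0746). Smad5, which is activated by the same receptors, was at 155 ± 21.8 and 156 ± 36.6 CPM (SD, n = 7 and 6). The difference in response between these transducers was not tested.

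Among 6 other target genes 3 were lower and 0 higher (edgeR; 5 and 0 at an unadjusted p under 0.05, 4 and 0 with DESeq2 and limma), beside 10.8% and 11.8% of all genes. All 6 had a log2 fold change under 0, with a median of −1.21, but Smad7 was at 0.15 with the endothelial scaling without Cd93. Tmem100, an endothelial gene downstream of ACVRL1, was 217 ± 58.0 CPM (± SD) over 7 normoxic and 67.1 ± 21.8 CPM over 6 hyperoxic libraries, a log2 fold change of −1.69 (SE 0.22, edgeR, adjusted p = 6.8e-05). Hey1, a transcriptional repressor that Notch also induces, was 23.0 ± 7.03 CPM (± SD) over 7 normoxic and 4.41 ± 3.00 CPM over 6 hyperoxic libraries, a log2 fold change of −2.33 (SE 0.43, edgeR, adjusted p = 0.00115). Bambi, a decoy receptor, had a log2 fold change of −1.11 (SE 0.33, edgeR, adjusted p = 0.0239), and for all 3 genes the hyperoxic libraries lay below the normoxic range, where 10.8% of all genes tested showed no overlap in either direction. The call of Bambi was lost within letters B to M (−1.06, edgeR, adjusted p = 0.225), and there without hyperoxia replicate 1 (−0.58, edgeR, adjusted p = 0.141), without normoxia replicate 4 (edgeR, adjusted p = 0.0514), without hyperoxia replicate 6 (edgeR, adjusted p = 0.0538) and with the endothelial scaling without Cd93 (−0.73, edgeR, adjusted p = 0.132). Smad7, an inhibitory SMAD, was not called (−0.27, edgeR, adjusted p = 0.424). None of 3 E proteins, the partners of ID proteins, passed, and Tcf4 had a log2 fold change of 0.29 (edgeR, adjusted p = 0.151), and 0.66 (edgeR, adjusted p = 0.0219) with the endothelial scaling without Cd93, which raised the median of all genes. Tcf12, named after its values were seen, was at 141.5 to 202.9 CPM in normoxia and 212.6 to 247.5 CPM in hyperoxia, with no overlap between the groups (log2 fold change 0.34, edgeR, adjusted p = 0.0608, and 0.0427 without hyperoxia replicate 1). At an unadjusted p under 0.05 (edgeR), 1 E protein was higher and 1 lower, and 1 was called higher by DESeq2, by limma-voom and without hyperoxia replicate 1.

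**Figure D5:**
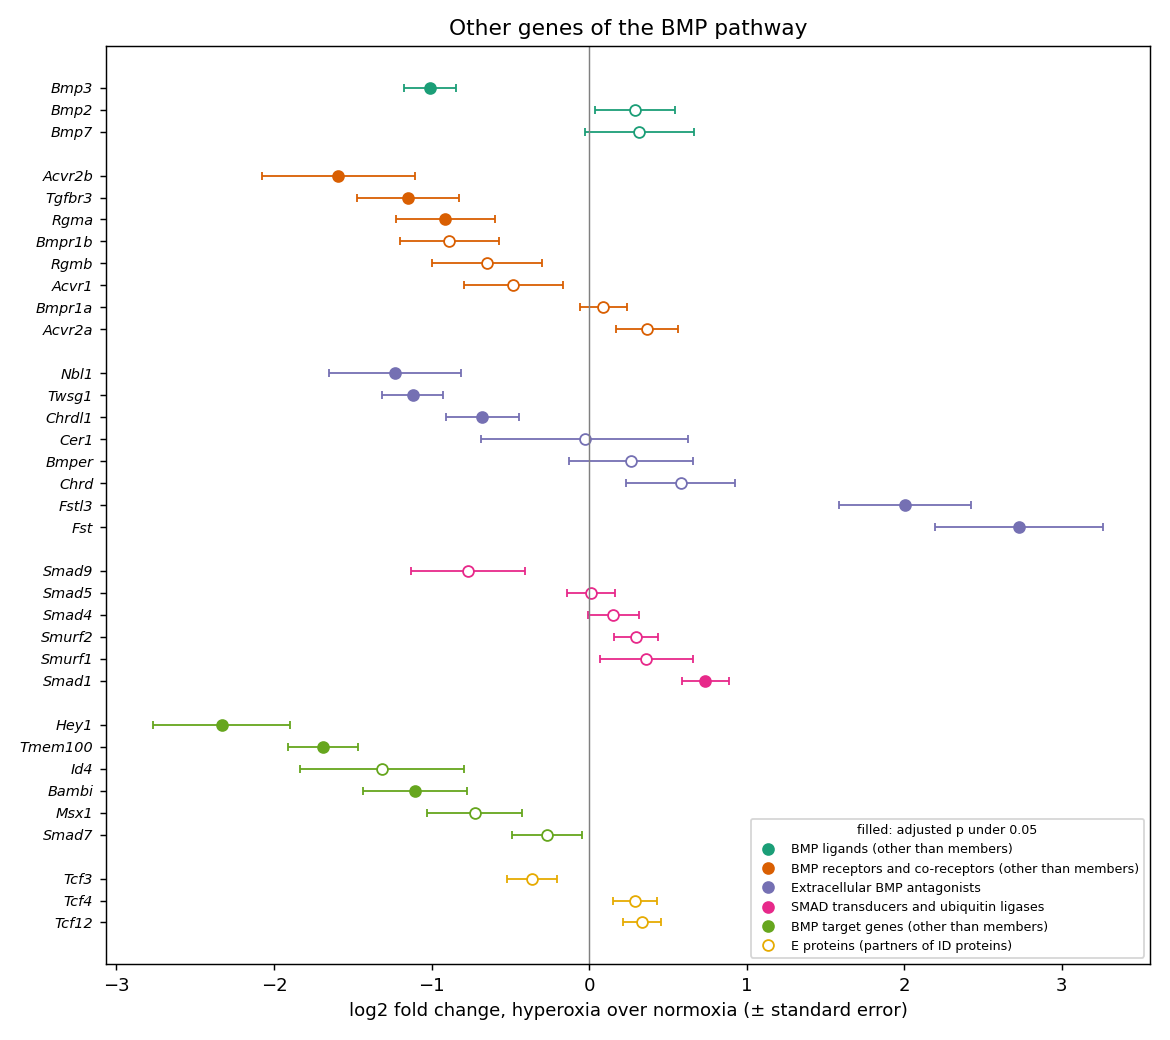
Log2 fold change, hyperoxia over normoxia, of the 34 tested genes of 6 BMP pathway lists, with bars of 1 standard error; colours mark the lists and filled circles passed an adjusted p of 0.05. The other target genes all lie left of 0, from −2.33 to −0.27, while the antagonists reach from −1.23 to 2.73.

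The endothelial receptors were set beside markers of the cells that carry them. Of 18 endothelial markers, 4 were higher and 7 lower in hyperoxia, where 11.8% and 10.8% of all genes tested were. The log2 fold changes of the markers had a median of −0.54, beside −0.03 over all genes, and a range from −1.85 to 2.20. Their summed level was 6437 to 8480 CPM in normoxia and 6767 to 11460 CPM in hyperoxia, the highest being replicate 1, and no marker was at 0 in all libraries. In hyperoxia much of that sum was Cd93, an endothelial membrane glycoprotein singled out after its values were seen, which ranged from 695 to 854 CPM in normoxia and from 2449 to 5550 CPM in hyperoxia (log2 fold change 2.20, edgeR, adjusted p = 1.66e-06). Without it the other 17 markers summed to 5583 to 7765 CPM with a median of 6235 in normoxia and to 3786 to 7284 CPM with a median of 4803 in hyperoxia. Pecam1 had a log2 fold change of −0.79 (edgeR, adjusted p = 0.198) and Cdh5 of 0.18 (edgeR, adjusted p = 0.307). With libraries scaled to all 18 markers, Eng was still higher (0.77, edgeR, adjusted p = 0.0213), Bmp5 and Id2 were lower, and Acvrl1 passed as well (−0.74, edgeR, adjusted p = 0.0159). Scaled to the 17 without Cd93, Eng was higher (1.37, edgeR, adjusted p = 0.000421), Acvrl1 was at −0.12 (edgeR, adjusted p = 0.736), and Bmp5 and Id2 did not pass, so that the calls other than that of Eng turn on 1 marker under this kind of scaling.

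Markers of other lung cells also moved with the groups. Of all genes tested, 11.8% were higher and 10.8% lower (edgeR), and 15.2% and 13.3% without hyperoxia replicate 1. Summed levels cover every gene of a list, also those not tested (12 lymphocyte, 12 fibroblast, 8 neutrophil and 7 erythroid markers). Of 10 alveolar type 2 markers 7 were lower and their summed level was 13340 to 24520 CPM in normoxia and 3568 to 7758 CPM in hyperoxia, of 9 airway markers 4 were lower (14670 to 53420 and 286.8 to 10250 CPM), and of 7 tested lymphocyte markers 7 were lower (156 to 213 and 39.3 to 88.5 CPM). Of 10 macrophage and monocyte markers 4 were lower and 1 higher (2467 to 4324 and 710 to 1775 CPM), and of 4 erythroid markers 1 was lower (194 to 3402 and 169 to 2864 CPM). Of 10 smooth muscle and pericyte markers 3 were higher (375 to 465 and 517 to 854 CPM), as were 3 of 10 fibroblast markers with 1 lower (2780 to 3807 and 3513 to 4161 CPM). Of 10 alveolar type 1 markers 1 was higher and 1 lower (4794 to 5464 and 5694 to 6548 CPM), and 0 of 5 neutrophil markers passed with edgeR (106 to 208 and 48.2 to 250.1 CPM). The airway markers that were lower numbered 7 with DESeq2 and at an unadjusted p under 0.05, and 6 without hyperoxia replicate 1. Erythroid markers that were lower numbered 2 with limma, and alveolar type 1 markers 2 with DESeq2 and with limma on log CPM. Without hyperoxia replicate 1, 2 alveolar type 1 markers were higher and 2 lower, and 2 macrophage and monocyte markers were higher and 5 lower. Of the 5 neutrophil markers, 1 was lower at an unadjusted p under 0.05, with DESeq2 and limma, and without hyperoxia replicate 1. Hyperoxia replicate 1 held the lowest airway, macrophage and neutrophil sums and the highest endothelial and smooth muscle sums of all libraries. Of its endothelial sum of 11460 CPM, Cd93 made up 5550 CPM. In this library Pecam1 was at 391.9 CPM, below its normoxic range of 1760 to 3978 CPM. Cdh5 was at 263.8 CPM there, above its normoxic range of 177.3 to 240 CPM. The part of these cell types in the levels of the BMP genes was not tested.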

How the data were processed

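Lung RNA of 7 normoxic and 6 hyperoxic samples was sequenced by Quant-seq. The authors ran kallisto, a pseudoaligner, through BioJupies and deposited raw, unfiltered whole-number counts per gene symbol, with the build given as mm10 in the submitters' processing notes. They also deposited log10 values, which are log10 of CPM plus 1 over each library's total, as recomputed to within 4.4e-16. The submitters' notes name limma 3.54.2. The annotation release and the use of strand in counting are not given in the sources used here, and 0 columns were left unmapped.

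The counts were tested with edgeR 4.0.16 in R 4.3.3 (filterByExpr, TMM scaling, quasi-likelihood test, all 13 libraries, no covariate, Benjamini-Hochberg over all genes, threshold 0.05), a step tested on simulated data. The tables carry no molecular identifiers, so the exact binomial intervals and the floor of 3 counts cover counting error only. Groups came from the sample labels, which do not tie each library to an animal, so p-values measure the spread between these samples. Single values were tested by exact two-sided permutation over samples on log2 CPM (prior count 2). The alternatives were DESeq2 1.42.0, limma 3.58.1 (voom, and a fit to the authors' log10 values on a log2 scale), a scaling to 18 endothelial markers, library size alone, a minimum of 10 counts in every library, no filter, the letter set as a term, a block for the replicate number, each letter set alone, each library left out, a log2 fold change over 1.5 as well, and a prior count of 0.5 for the ratios. Letters B to M without hyperoxia replicate 1, and the endothelial scaling without Cd93, were added after seeing the data.

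One gene was taken out of the pathway lists and is not reported here, and pathway genes not named in the text enter only the counts. The members and gene lists were chosen with earlier results of these data known. Beyond the 10 members, the genes named were the pathway genes past the threshold, the most abundant pathway gene of each list that did not pass, the gene most like each member, and the first 2 endothelial markers. Cd93, Tcf12 and Txndc5 lie outside this rule: Cd93 and Tcf12 were chosen after their values were seen, and Txndc5 because it overlaps Bmp6. Coordinates are from GENCODE M21 (GRCm38, the build of mm10), matched by symbol, and promoter sequences from RefSeq (GRCm38.p6).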

Additional observations from a re-analysis of the deposited data

Results flagged for a closer look

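In each group of 7 or 6 libraries, the gap between the highest or lowest library and its nearest neighbour was divided by the group's range (Dixon's ratio) and set against the 95% limit for that number of libraries. Of 88 groups examined, 19 exceeded their limit, where chance gives about 1 in 20, or 4.4, and 12 of the 19 were hyperoxia replicate 1.

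Hyperoxia replicate 1 was lowest in the mean of its correlations with the rest (ratio 0.763) and in the log2 CPM of Id1 (0.8), Id3 (0.814), Tgfbr3 (0.845), Fst (0.723) and Bmper (0.732), and highest in that of Id2 (0.63). Among ratios of a pair of genes it was lowest for Bmpr2 over Eng (0.74), Id1 over Id2 (0.758) and Smad6 over Id2 (0.628), and highest for Id1 over Id3 (0.813) and Id2 over Id3 (0.783). Hyperoxia replicate 3 was lowest for Acvrl1 over Eng (0.745).

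Of the normoxic libraries, replicate 5 had the lowest total count (0.694) and the highest Bmp5 level (0.577), replicate 4 the lowest Fstl3 level (0.612) and replicate 6 the lowest Nbl1 level (0.624). Replicate 6 also had the highest ratios of Bmp4 over Bmp6 (0.585) and of Bmp5 over Bmp6 (0.6), where its Bmp6 value rests on 4 counts.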

How the results depend on the processing

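The counts of Bmp6, Id1 and Id3 limit what can be read in hyperoxia replicate 1 and, for Bmp6, in every library. Of the 10 genes, Eng stayed past the threshold under every alternative run except a log2 fold change over 1.5 as well. Bmp5 stayed past it under all but that, the letter sets alone, letters B to M without hyperoxia replicate 1, and the endothelial scaling without Cd93. Leaving out 1 library gave 2 to 6 members past the threshold (main 3), with the highest without hyperoxia replicate 1, 2305 to 3633 genes of all (main 2819), 9 to 13 other pathway genes (main 13) and 3 to 6 pairs (main 3).

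Other settings that moved a count by over 1.5 times were these. Members past the threshold numbered 1 with the endothelial scaling without Cd93, 5 in the limma fit to the authors' log CPM, 1 within letters B to M, 5 within O to S and 0 with a log2 fold change over 1.5 as well. Genes of all numbered 1120 within letters B to M, 1744 there without hyperoxia replicate 1 and 488 with a log2 fold change over 1.5 as well. Other pathway genes numbered 8 with at least 10 counts in every library, 7 within letters B to M, 8 there without hyperoxia replicate 1 and 5 with the fold change threshold. Of the pairs, 0 passed within letters B to M, 0 there without hyperoxia replicate 1 and 0 within O to S, where the smallest exact p is 0.0179, 0.0476 and 0.1. The cause of the other moves was not tested.

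The deviations of same-numbered libraries from their group means correlated at −0.325 to 0.272. Different-numbered libraries were not compared, so this check does not settle whether the numbers pair the libraries. With the replicate block, 1344 genes of all, 2 members and 6 other pathway genes passed, and Eng (adjusted p = 0.0433) and Bmp5 (adjusted p = 0.0402) were the members called, while Id2 (adjusted p = 0.0718), Fst (adjusted p = 0.0829), Tgfbr3 (adjusted p = 0.0977) Bambi (adjusted p = 0.0619), Acvr2b (adjusted p = 0.108), Rgma (adjusted p = 0.159), Chrdl1 (adjusted p = 0.246) and Nbl1 (adjusted p = 0.172) did not pass.

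Signs turned as follows, none past the threshold on the turned side. With the endothelial scaling without Cd93, Bmp4 was 0.15, Bmpr2 0.0078, Id3 0.13 and Smad7 0.15. For members otherwise, Bmp4 was 0.13 and Id1 −0.086 within letters B to M, Id1 −0.16 with limma on log CPM, and Id3 0.37 within O to S. Within O to S, Nbl1 was 0.22, Bmpr1a −0.079, Smad5 −0.26 and Tcf4 −0.048. With limma on log CPM, Bmpr1a was −0.00037, Bmper −0.011 and Smad5 −0.081. With the endothelial scaling, Bmpr1a was −0.12 and Smad5 −0.24. Smad5 was also −0.011 with limma-voom, −0.076 with library size alone, −0.068 with at least 10 counts in every library, −0.013 with the replicate block and −0.11 to 0.10 with 1 library left out, and Smad7 was 0.028 within B to M without hyperoxia replicate 1.

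Differences in log2 ratio turned within O to S for Bmp4 over Bmp6 (−0.21), Bmp5 over Bmp6 (−0.29), Bmpr2 over Acvrl1 (−0.035), Id2 over Id3 (−1.51) and Smad6 over Id3 (−0.62), and within B to M for Id1 over Id2 (−0.60), Smad6 over Id1 (0.24), Smad6 over Id2 (−0.36) and, without hyperoxia replicate 1, Id2 over Id3 (−0.32). With 1 library left out they ran from −0.24 to 0.39 for Bmp5 over Bmp6, −0.073 to 0.39 for Bmpr2 over Acvrl1, −0.80 to 1.09 for Id2 over Id3, −0.0097 to 0.67 for Smad6 over Id2 and −0.14 to 1.24 for Smad6 over Id3.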
